A study of Mus musculus with 25 samples.

Results

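Among the peaks of open chromatin measured in fetus/graft-specific CD8+ T cells (T_FGS) of mice, 1363 of 13527 (10.1%) were listed for the S+P C5 subset and for none of the other groups. These peaks were chosen by the deposited peak lists: a peak of the count table was taken when it shared at least 1 bp with a peak of the S+P C5 list and no base with a peak of any of the other 6 lists. They make up 12.2% of the 11213 table peaks that the S+P C5 list covers. Because that list chose them, every S+P C5 value below is a description. Only comparisons between the other groups are read as tests, within limits given where they start.

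All T_FGS came from the spleens and lymph nodes of female C57BL/6 mice and were sorted as CD8+ T cells that bind a tetramer of an ovalbumin (OVA) peptide on Kb. Graft donors and fathers were 2W-OVA.BALB/c mice, which express that antigen in their tissues, so that the same cells can recognize skin graft and fetus. Naive mice (3 libraries) had no treatment, and Sensitized mice (4 libraries) had rejected an allogeneic skin graft weeks earlier and were not mated. N+P mice were pregnant without a graft and S+P mice were pregnant after rejecting one, and their cells were taken in the first days after delivery. From N+P mice, the PD1- subset C1 (3 libraries) and the PD1+ CD73+ subset C5 (3 libraries) were sorted. From S+P mice, the PD1- subset C4, the PD1+ CD73+ subset C5 and the PD1+ CD73- subset C7 were sorted (4 libraries each). PD1 (gene Pdcd1) and CD73 (gene Nt5e) define the gates, so differences at these genes between the subsets are not independent of the sort. The labels name no PD1 or CD73 gate for Naive or Sensitized libraries. A comparison of a post-partum subset with either therefore changes pregnancy and gate together. The number of cells per library varied widely.

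In ATAC-seq, a transposase inserts adapters where DNA is not covered by nucleosomes, so the reads over a peak measure how accessible that stretch is over all the cells in the tube. Promoters are open in most cells of a lineage, while enhancers in introns and between genes are opened and closed by transcription factors as a T cell is activated, becomes memory, or turns exhausted. Exhausted CD8+ T cells carry inhibitory receptors such as PD1 and TIGIT, and a distinct set of open enhancers at genes such as Pdcd1 and Tox. In bulk samples, more cells with an open site and a more open site in each cell cannot be told apart.

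Sequences are printed for 8 of the peaks, 300 bases around each midpoint, read from the plus strand of GRCm39. The first 4 are those with the largest ratio of the S+P C5 mean to the highest of the other 6 group means. The other 4 led a tested comparison by the smallest adjusted p among opening peaks that did not overlap between the groups. Each is named after the protein-coding gene whose start lies nearest, a name by position that says nothing of which gene a peak controls. Capitals mark short strings searched on both strands: AP-1 TGANTCA, NFAT TGGAAA, RUNX TGTGGT, T-box GGTGTGA, TCF/LEF TCAAAG, NR4A AAAGGTCA, ETS AGGAAGT, IRF AANNGAAA and STAT TTCNNNGAA. The IRF and NFAT strings overlap in the Spaca6 peak.
Ptger2, intergenic, chr14:45243120-45243419: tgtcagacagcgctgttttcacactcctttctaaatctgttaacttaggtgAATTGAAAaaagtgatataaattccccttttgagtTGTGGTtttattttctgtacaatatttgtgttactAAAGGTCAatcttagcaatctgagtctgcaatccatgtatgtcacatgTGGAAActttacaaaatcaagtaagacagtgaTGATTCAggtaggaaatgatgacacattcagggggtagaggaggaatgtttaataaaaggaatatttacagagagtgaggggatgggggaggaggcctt
Spaca6, intron, chr17:18061097-18061396: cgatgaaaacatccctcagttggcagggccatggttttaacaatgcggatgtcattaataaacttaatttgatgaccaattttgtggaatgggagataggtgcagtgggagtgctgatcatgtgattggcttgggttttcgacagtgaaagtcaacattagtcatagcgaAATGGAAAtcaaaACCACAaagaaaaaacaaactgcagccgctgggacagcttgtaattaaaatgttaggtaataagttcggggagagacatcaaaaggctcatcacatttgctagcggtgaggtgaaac
Rps29, intergenic, chr12:69148692-69148991: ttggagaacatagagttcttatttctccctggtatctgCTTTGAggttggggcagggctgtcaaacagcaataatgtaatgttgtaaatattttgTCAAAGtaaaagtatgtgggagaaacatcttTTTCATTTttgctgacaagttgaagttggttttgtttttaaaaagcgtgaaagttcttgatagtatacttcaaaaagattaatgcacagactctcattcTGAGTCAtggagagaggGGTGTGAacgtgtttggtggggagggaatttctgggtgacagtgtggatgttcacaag
Fam163a, promoter, chr1:156033811-156034110: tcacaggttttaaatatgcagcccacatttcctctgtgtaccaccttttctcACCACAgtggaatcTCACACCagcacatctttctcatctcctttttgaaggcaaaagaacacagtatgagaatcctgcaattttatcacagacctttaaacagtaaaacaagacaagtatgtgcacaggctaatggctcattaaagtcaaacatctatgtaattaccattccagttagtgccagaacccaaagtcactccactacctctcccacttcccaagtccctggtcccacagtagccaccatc
Tigit, intron, chr16:43482119-43482418: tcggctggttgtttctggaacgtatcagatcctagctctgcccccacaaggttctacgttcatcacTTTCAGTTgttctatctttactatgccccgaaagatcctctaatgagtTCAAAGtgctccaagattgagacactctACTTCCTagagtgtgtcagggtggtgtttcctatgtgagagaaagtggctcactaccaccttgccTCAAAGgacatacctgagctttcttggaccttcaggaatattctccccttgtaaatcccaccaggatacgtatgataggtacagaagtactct
Dgkh, intron, chr14:78936679-78936978: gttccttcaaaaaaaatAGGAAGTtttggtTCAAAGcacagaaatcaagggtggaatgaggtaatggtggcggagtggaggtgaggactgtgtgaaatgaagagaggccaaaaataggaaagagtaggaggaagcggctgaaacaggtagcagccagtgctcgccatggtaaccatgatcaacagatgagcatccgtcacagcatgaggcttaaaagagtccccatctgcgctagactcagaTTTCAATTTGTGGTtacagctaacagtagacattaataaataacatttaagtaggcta
Fancc, intron of Aopep, chr13:63422498-63422797: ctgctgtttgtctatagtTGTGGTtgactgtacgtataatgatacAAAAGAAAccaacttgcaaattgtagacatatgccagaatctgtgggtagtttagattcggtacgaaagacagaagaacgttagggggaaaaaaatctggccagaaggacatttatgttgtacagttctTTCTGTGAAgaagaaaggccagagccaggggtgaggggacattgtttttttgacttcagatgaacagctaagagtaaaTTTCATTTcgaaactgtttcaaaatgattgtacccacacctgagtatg
Cox7c, intergenic, chr13:85872622-85872921: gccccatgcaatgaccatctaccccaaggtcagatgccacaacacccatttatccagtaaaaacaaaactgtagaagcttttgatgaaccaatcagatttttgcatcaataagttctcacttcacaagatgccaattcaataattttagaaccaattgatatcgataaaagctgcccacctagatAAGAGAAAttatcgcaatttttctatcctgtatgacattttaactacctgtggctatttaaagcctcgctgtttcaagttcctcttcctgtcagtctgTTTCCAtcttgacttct

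The Ptger2 stretch held 5 strings, those of AP-1, NFAT, RUNX, NR4A and IRF. The Rps29 stretch also held 5, with AP-1, T-box and IRF once each and TCF/LEF at 2 positions. The Tigit stretch held 4, of TCF/LEF at 2 positions, ETS and IRF, and no AP-1, NFAT or NR4A string.

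Total counts per library ran from 2430890 (S+P C4 replicate 1) to 25419715 (S+P C5 replicate 1), with a median of 8197552. Summed over its libraries, S+P C5 held 51144389 counts and had the longest list, with 11384 peaks. Sensitized held 53808339 counts and listed 9792 peaks, while S+P C4 held 27105245 and listed 3788. The part of depth in which peaks were listed was not tested. For other groups the peaks listed there alone were far fewer, with 235 in Sensitized, 213 in S+P C7, 181 in the Naive and 173 in the N+P C1 group, with N+P C5 at 95 and S+P C4 at 4. Another 744 peaks were shared by the S+P C5 list with the S+P C7 list and lay in no other. Of 7 T cell genes, Cd3d, Cd3e, Cd3g and Cd8a had a promoter peak and Cd8b1, Thy1 and Cd2 had none, and none of the 26 marker genes of B cells, macrophages, dendritic cells, NK cells, CD4 T cells and erythroid cells had one. The 4 Sensitized libraries were not alike: replicates 1 and 2 stood apart from replicates 3 and 4 at several peaks described below, a split seen only after the values were known. In tested comparisons that use Sensitized, the main counts of calls are therefore given with and without each pair, as are fold changes where leaving out a pair moved them most.

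The S+P C5 list gave its exclusive peaks low scores. The median ChIP-R score, which ranks how reproducibly a peak recurs over the libraries of a group, was 350 in these peaks and 702 in the other table peaks of the list. The lowest of their q-values was 0.0813 and the median 0.89, and 0 of 1363 were under 0.05. Among the other peaks of the list, 1680 of 9850 (17.1%) were. Being listed for S+P C5 alone thus describes the list and not the signal alone, and the counts below show how far the other groups had reads at the same places.

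The peaks were shorter than the rest, with a median length of 579 bp against 963 bp over the whole table. By their midpoints, 637 (46.7%) were promoter peaks, no more than 1000 bp away from where a protein-coding transcript starts, against 56.7% of all peaks. Introns held 377 (27.7%, against 21.6%), exons 33 (2.42%), and 316 (23.2%, against 19.6%) lay between genes. The median distance to the nearest gene start was 5361 bp, against 1595 bp over all peaks. The nearest peak of another group's list lay a median of 18603 bp away, and 63 of the 1363 had one within 1000 bp.

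Every library had reads in these peaks. They took 5.10% ± 0.359 (SD, n = 4) of the counts of S+P C5 libraries and 4.62% ± 0.375 (n = 4) of S+P C7. In S+P C4 the share was 3.86% ± 0.142 (n = 4), and in Sensitized 3.70% ± 0.486 (n = 4), where replicate 1 stood highest at 4.40% and the other libraries ran from 3.32% to 3.65%. Groups without a graft were lowest, with 3.38% ± 0.179 in Naive, 3.13% ± 0.106 in N+P C5 and 3.01% ± 0.140 in N+P C1 (n = 3 each). The S+P C7 libraries, from 4.32% to 5.11%, overlapped those of S+P C5, from 4.79% to 5.59%, although no S+P C7 peak was listed there.

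**Figure D1:**
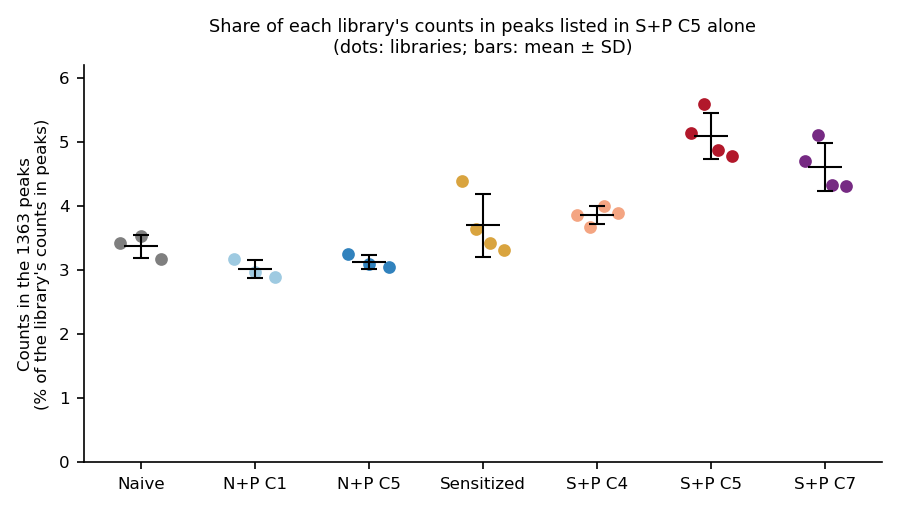
Counts in the 1363 peaks as a percentage of each library's counts in all peaks, by group, with a dot for each library and bars for mean ± SD. S+P C5 (4.79% to 5.59%) and S+P C7 (4.32% to 5.11%) overlap, and N+P C1 is lowest at 2.90% to 3.17%.

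The groups differed least at promoter peaks. In promoter peaks the median over peaks of the group mean (counts divided by the size factor of the library, called normalized counts here) ran from 211.8 in N+P C5 to 264.9 in S+P C5, with 235.9 in Naive. In introns it was 127.2 in Naive, 100.8 in N+P C1 and 113.5 in N+P C5, then 186.8 in Sensitized, 172.5 in S+P C4, 240.4 in S+P C7 and 282.2 in S+P C5. Between genes it was 156.3 in Naive, 192.0 in Sensitized, 186.0 in S+P C4, 240.0 in S+P C7 and 280.5 in S+P C5. The group medians thus differed less at promoter peaks than in introns and between genes, but promoters were not level. At these promoter peaks the median log2 fold change of S+P C7 against N+P C5 was 0.314, against 0.0126 over all promoter peaks. For S+P C7 against Sensitized it was 0.21, against 0.0396, and for Sensitized against Naive -0.0599, against -0.0278.

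**Figure D2:**
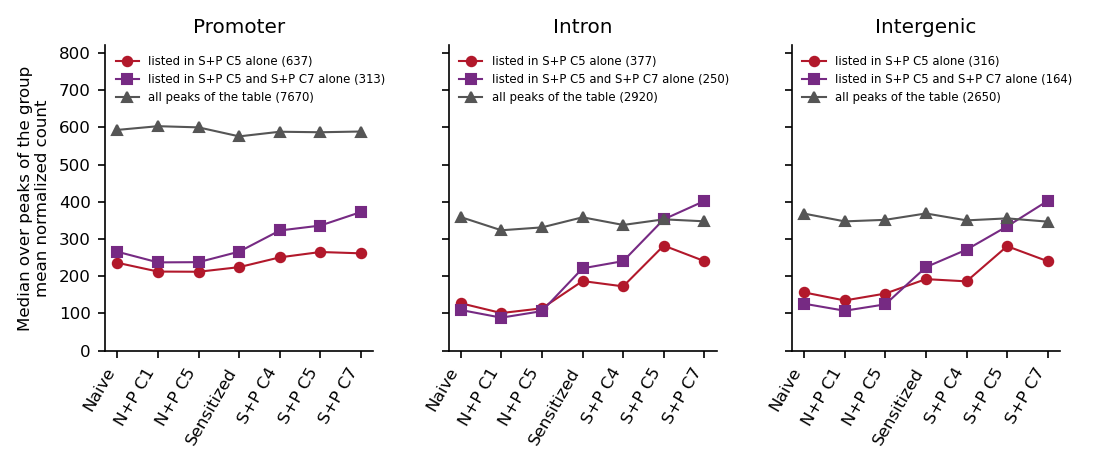
Median over peaks of the group mean normalized count for promoter, intron and intergenic peaks, for the peaks listed in S+P C5 alone, those listed in both PD1+ subsets of S+P mice alone, and all peaks, with the number of peaks in brackets. For peaks listed in S+P C5 alone the promoter line is the flattest (211.8 to 264.9), and the intron line goes from 100.8 in N+P C1 to 282.2 in S+P C5.

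S+P C5 had the highest group mean at 626 of the 1363 peaks (45.9%), against 11.7% over the table. At 368 (27%, against 28.8%) it was S+P C7, at 121 (8.88%, against 14.3%) Naive and at 109 (8%, against 4.48%) S+P C4. By place, S+P C5 was highest at 60.2% of the intron peaks (against 16.2% over the table). The shares were 56.0% (against 14.6%) between genes and 32.7% (against 9.11%) at promoters. The log2 ratio of its mean to the highest of the other means had a median of -0.02 over the peaks, so that the typical one was as high in some other group. For 845 peaks the S+P C7 mean was within 10% of the S+P C5 mean or above it, and for 472 the Naive mean was. The median log2 difference of the means was 0.08 against S+P C7, 0.20 against S+P C4, 0.31 against Sensitized, 0.31 against Naive, 0.48 against N+P C5 and 0.49 against N+P C1. The share highest in S+P C5 was 54.7% and the median log2 ratio 0.02 with size factors from peaks in all 7 lists, and 50% and 0.00018 without S+P C5 replicate 4. The name of the list thus did not hold as a statement about signal for many of these peaks.

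A small set did have its signal mainly in S+P C5. At 27 peaks the mean was over 1 log2 unit above every other group mean, and at 46 all 4 S+P C5 libraries were above the other 21, which held for 57 peaks of the table (0.421%). Of the 46, 22 were intergenic, 16 lay in introns, 6 were promoter peaks and 2 exonic, and for 32 of them S+P C7 came next. The choice of peaks by the S+P C5 list favours such a pattern, so these counts are not evidence for it.

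The largest ratio was at an intergenic peak 17618 bp from the start of Ptger2, which encodes the EP2 receptor for prostaglandin E2 (chr14:45242866-45243675). Its normalized counts were 266, 608, 370 and 296 in S+P C5, while S+P C7 held 77.4, 235, 119 and 59.8. No library of the other 5 groups was above 109, and the lowest S+P C5 library was above the highest S+P C7 library. The peak was 1 of 3 near Ptger2 out of 4 peaks at that gene, and the S+P C5 means of the 3 were 385, 421 and 324 against 123, 297 and 172 in S+P C7.

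At the peak in an intron of Spaca6, a gene of sperm-egg fusion (chr17:18060975-18061519), S+P C5 held 262, 248, 232 and 237, compared with 113, 86.8, 72.9 and 43.9 in S+P C7. An intergenic peak whose nearest gene, Rps29, encodes a protein of the small ribosomal subunit (chr12:69148570-69149114) held 259, 309, 161 and 281 in S+P C5, then 97.8, 134, 66.3 and 35.0 in S+P C7, and at most 34.0 in any other library. The promoter peak of Fam163a (chr1:156033649-156034274) held 383, 389, 249 and 375 in S+P C5, while S+P C7 held 145, 155, 92.8 and 79.5. At all 3, every S+P C5 library was above every S+P C7 library, and the Naive and N+P C1 means were the lowest. The other members of this set that the naming rule took were near Stk39, Zc3h12c, Cox7c and Nt5e.

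Nt5e encodes CD73, the ectoenzyme that makes adenosine and that separates C5 from C7 in the sort. Its intron peak (chr9:88214398-88215019) held 311, 311, 414 and 275 in S+P C5, against 57.0, 143, 97.8 and 52.1 in the CD73- subset S+P C7. In the CD73+ subset of mice without a graft, N+P C5, it held 112, 112 and 159, below every S+P C5 library. The promoter peak of the same gene (chr9:88209362-88210170) held 419, 384, 371 and 419 in S+P C5, above the 198, 283, 273 and 304 of S+P C7 but below the 436, 476 and 536 of N+P C5. Neither Nt5e peak passed the call in a comparison without S+P C5. The promoter peak missed only the fold threshold of 0.9 in 2 comparisons by the DESeq2 Wald test. Its log2 fold change in S+P C7 was -0.869 against N+P C5 (adjusted p = 1.35e-07) and -0.711 against Sensitized (adjusted p = 7.33e-06).

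The 4 peaks with the highest S+P C5 means were near Myoz3 (within the Synpo promoter), Zcwpw1, Zfpm1 and Gadd45b, at 1130, 1130, 981 and 977. At Zcwpw1 and Gadd45b the groups lay close together. At the edge of the rule, just inside it, 2310022A10Rik lay 76 bp from a peak of another list and had an S+P C5 mean of 234 against 313 in N+P C5, and Traf6 lay 117 bp away with 182 against 218 in Sensitized. Just outside, Cdc20b (also listed for N+P C1) had an S+P C5 mean of 131 against 178 in N+P C1, and Tmem214 (also listed for S+P C7) had 199 against 215 in S+P C7.

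A peak was called in a comparison at an adjusted p under 0.1 with an absolute log2 fold change over 0.9, and it is named opening when higher in the group named first and closing when lower. In the 4 comparisons with S+P C5, which the choice of peaks used, the counts describe the chosen peaks and test nothing, and the choice favours opening over closing. Against Sensitized, 231 opened and 0 closed (3.08% and 3.67% of all peaks). Against S+P C4 there were 270 and 0 (3.12% and 2.0%), against S+P C7 55 and 0 (2.11% and 0.266%), and against N+P C5 433 and 0 (10.3% and 6.97%). With loess offsets, which make the libraries equal at each level of mean count, the same counts were 95 and 4, 150 and 7, 58 and 0, and 139 and 32. The shares of all peaks were then 1.45% and 4.79%, 1.84% and 3.4%, 2.17% and 0.355%, and 6.6% and 8.46%. The tests that follow are between groups that all lack these peaks in their lists, so the rule did not use their contrasts directly. It did remove peaks listed in either group, and lists of unequal length can limit opening and closing calls unequally. Same-numbered S+P C5 and S+P C7 libraries also deviated from their group means together. A choice by the S+P C5 list can therefore favour opening in S+P C7. How far this shaped the counts below was not tested.

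The comparison of S+P C7 with Sensitized sets the PD1+ CD73- subset after pregnancy against cells that had met the graft alone. The labels give Sensitized no PD1 or CD73 gate, so pregnancy and the gate cannot be told apart here. Of the 1363, 163 opened and 4 closed, where 3.84% of all peaks opened and 8.03% closed. Among all peaks closing calls outnumbered opening ones, and here opening calls prevailed, with 12% of the peaks opening and 0.293% closing. They were unevenly placed: 93 of 377 intron peaks (24.7%, against 9.73% of all intron peaks), 62 of 316 intergenic (19.6%, against 6.91%) and 6 of 637 promoter peaks (0.942%, against 0.508%) opened. With loess offsets 40 opened and 36 closed (1.71% and 8.83% of all peaks). Without Sensitized replicates 1 and 2 the counts were 299 and 7, and without replicates 3 and 4 they were 122 and 10. These stood beside 18.2% and 6.96% of all peaks called in either direction, against 11.9% with all libraries. The first gave 160 intron (42.4%, against 19.9%), 104 intergenic (32.9%, against 14.8%) and 31 promoter peaks (4.87%, against 1.67%) opening. The second gave 67 (17.8%, against 4.86%), 47 (14.9%, against 4.08%) and 5 (0.785%, against 0.183%).

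Tigit, which encodes a co-inhibitory receptor of exhausted and regulatory T cells, led the opening peaks. Its intron peak (chr16:43481871-43482667) held 324, 237, 224 and 225 in S+P C7 and 339, 386, 369 and 315 in S+P C5, against 72.1, 56.5, 57.3 and 77.6 in Sensitized and 136, 81.8, 97.6 and 104 in S+P C4. Every PD1+ library of S+P mice was above every library of the other groups, and N+P C5 held 44.3, 45.2 and 48.1. The log2 fold change of S+P C7 against Sensitized was 1.94 (SE 0.191, adjusted p = 2.43e-21). With loess offsets it was 0.88 and no longer past the fold threshold.

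An intergenic peak near Ppp2r5c, a regulatory subunit of protein phosphatase 2A (chr12:110352524-110353036), held 311, 342, 200 and 87.1 in S+P C7 and at most 13.0 in Sensitized. It rose by 4.96 (SE 0.492, adjusted p = 5.44e-21), and 2.03 with loess offsets, still a call. A peak in an intron of Asap1, nearest to Cyrib, a regulator of the actin cytoskeleton (chr15:64083309-64084398), held 426, 553, 413 and 392 against 159, 156, 104 and 121, and rose by 1.72 (adjusted p = 7.70e-17), or by 1.98 and 1.5 without the first or the second pair of Sensitized libraries. In these peaks the S+P C7 and Sensitized libraries did not overlap. Of the 4 closing peaks, the first lay near Hs1bp3 (chr12:8401158-8401804), with 158, 100, 123 and 92.2 in S+P C7 and 216, 317, 298 and 378 in Sensitized (log2 fold change -1.35, SE 0.198, adjusted p = 4.66e-10). There S+P C5 held 256, 205, 272 and 223, above every S+P C7 library.

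The peak upstream of Pdcd1 (chr1:93982381-93984275, 3016 bp from the gene start) was high in both PD1+ subsets of S+P mice, with 758, 895, 850 and 532 in S+P C5, while S+P C7 held 852, 979, 893 and 545. Sensitized held 545, 595, 169 and 215 and S+P C4 323, 266, 461 and 300. Naive libraries held 61.8 to 79.7 and the PD1+ subset of N+P mice 92.6 to 108. The fold change of S+P C7 against Sensitized was 1.10 (SE 0.309, adjusted p = 0.0017), a call lost without Sensitized replicate 3. It was 2.09 without Sensitized replicates 1 and 2, and 0.52 and no call without replicates 3 and 4. It was 1.27 against S+P C4 (adjusted p = 0.000806), 3.05 against N+P C5 (adjusted p = 4.10e-17) and, for Sensitized against Naive, 2.44 (adjusted p = 1.21e-10), which became 1.46 and 3.02 with the first or the second pair of Sensitized libraries left out. N+P C5, which was sorted as PD1+ too, thus stayed below every library of the groups with a graft.

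Tox2 encodes an HMG-box factor related to Tox, and both are tied to exhaustion. Its promoter peak (chr2:163044744-163045785) held 612, 718, 305 and 263 in S+P C7, 638, 810, 442 and 484 in S+P C5 and 98.6, 87.9, 206 and 202 in Sensitized. All libraries of both PD1+ subsets of S+P mice were above the highest library of the other groups, 235. S+P C7 rose against Sensitized by 1.67 (SE 0.30, adjusted p = 4.98e-07), and by 1.62 with loess offsets. The rise was 1.22 without Sensitized replicates 1 and 2 and 2.34 without replicates 3 and 4. Il10 encodes the anti-inflammatory cytokine IL-10. In its intron peak (chr1:130949223-130951143) S+P C7 held 1140, 1620, 802 and 519, S+P C5 766, 1330, 716 and 525, and Sensitized 435, 395, 97.5 and 166, with 27.6 to 51.7 in Naive. The difference of S+P C7 from Sensitized was 1.90 (SE 0.391, adjusted p = 1.32e-05), 2.96 without Sensitized replicates 1 and 2 and 1.30 without replicates 3 and 4. At both genes, as at Pdcd1, Sensitized replicates 1 and 2 stood apart from replicates 3 and 4.

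**Figure D3:**
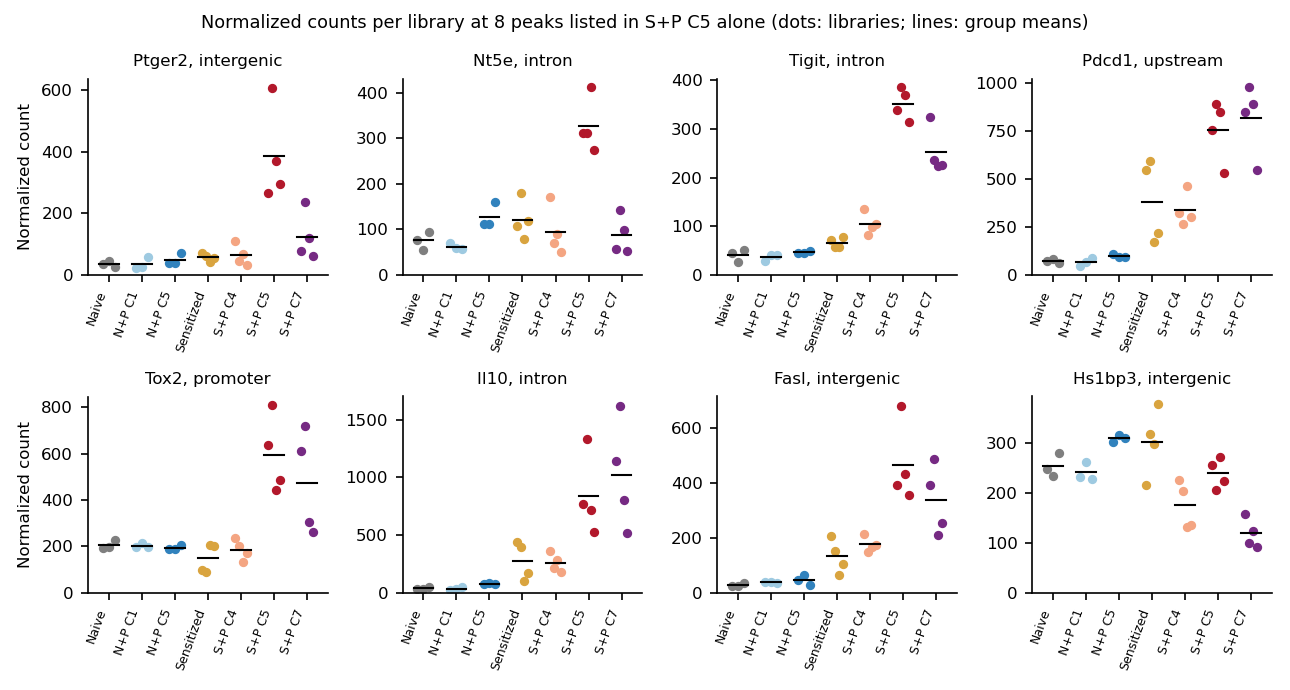
Normalized counts per library (dots) and group means (lines) at 8 of the peaks, each axis starting at 0. The Ptger2 and Nt5e peaks are highest in S+P C5, the Tigit, Pdcd1, Tox2, Il10 and Fasl peaks are high in both PD1+ subsets of S+P mice, and the Hs1bp3 peak is lowest in S+P C7 (92.2 to 158).

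Between S+P C7 and S+P C4 the PD1+ and PD1- cells of the same kind of mice are compared. In this contrast 182 of the peaks opened and 0 closed, against 2.48% and 5.25% of all peaks. Introns held 100 of them (26.5% of the intron peaks, against 6.27%), intergenic stretches 68 (21.5%, against 4.72%) and promoters 10 (1.57%, against 0.235%). The S+P C4 list was the shortest, with 3788 peaks, and how many peaks its part of the rule left out was not counted. With loess offsets 25 opened and 4 closed (0.695% and 5.71% of all peaks). The first opening peak lay in an intron of Dgkh, a diacylglycerol kinase (chr14:78936517-78937142). It held 265, 266, 204 and 125 in S+P C7 and 85.1, 42.8, 60.8 and 59.6 in S+P C4, without overlap, a rise of 1.83 (SE 0.270, adjusted p = 6.25e-09) and of 0.94 with loess offsets.

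For S+P C4 against Sensitized, the PD1- subset after pregnancy and the cells of unmated mice, 10 of the peaks opened and 14 closed (0.562% and 0.296% of all peaks). The counts turned on single libraries. They were 8 and 2 without S+P C4 replicate 4, 4 and 10 without S+P C4 replicate 3, 14 and 38 without S+P C4 replicate 1, and 38 and 17 without Sensitized replicate 1. Without Sensitized replicates 1 and 2 there were 108 opening and 10 closing, and without replicates 3 and 4 there were 8 and 58, so that the prevailing direction depended on which pair stayed. Of all peaks 0.858% were called in either direction with all libraries, 0.488%, 0.599%, 1.73% and 1.94% with those single libraries left out, and 4.74% and 2.31% without the pairs. Among the closing peaks was one near Il15ra, the receptor chain that presents IL-15 (chr2:11697775-11698284), with 157, 67.5, 66.5 and 48.2 in S+P C4 and 300, 314, 111 and 152 in Sensitized. Its fold change was -1.42, and the call was lost without Sensitized replicate 2, S+P C4 replicate 3 or S+P C4 replicate 4, and when both groups were fitted alone. It was -0.69 and no call without Sensitized replicates 1 and 2, and -1.91 without replicates 3 and 4.

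S+P C7 against N+P C5 sets PD1+ cells with and without an earlier graft side by side, although they also differ in CD73. It gave the most calls, 383 opening and 4 closing, against 11.4% and 10.6% of all peaks. Of the peaks 28.1% opened, with 205 of 377 in introns (54.4%, against 26.4%), 131 of 316 between genes (41.5%, against 20.8%) and 39 of 637 at promoters (6.12%, against 2.43%). With loess offsets 105 opened and 109 closed (8.06% and 12% of all peaks), so the excess of opening over closing calls was absent under that scaling. The first opening peak lay in an intron of Aopep nearest to the start of Fancc, a Fanconi anemia gene of DNA repair (chr13:63422296-63423001). S+P C7 held 398, 453, 340 and 295 and N+P C5 39.2, 48.0 and 60.1, a rise of 2.92 (SE 0.240, adjusted p = 9.03e-31), or 1.16 with loess offsets.

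Sensitized against Naive shows which of the sites differed after graft rejection without any pregnancy. Of the peaks 236 opened and 2 closed, where 7.22% and 1.4% of all peaks did. In introns 130 opened (34.5%, against 17.3%), between genes 83 (26.3%, against 13.8%) and at promoters 16 (2.51%, against 1.0%). With loess offsets the counts were 93 and 52 (5.25% and 2.65% of all peaks). Without Sensitized replicates 1 and 2 they were 141 and 0 with 78 in introns, and without replicates 3 and 4 they were 282 and 13 with 158 in introns, when 4.18% and 15.2% of all peaks were called. The leading peak lay 322251 bp from the start of Cox7c, a subunit of cytochrome c oxidase (chr13:85872286-85873259). Naive libraries held 53.7, 23.6 and 58.7 and Sensitized 222, 386, 244 and 258, which did not overlap (log2 fold change 2.60, SE 0.248, adjusted p = 3.04e-22). S+P C5 was higher still, at 605 to 675, and S+P C7 held 416 to 594.

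The comparisons among mice without a graft gave no calls in these peaks. N+P C5 against Naive had 0 opening and 0 closing (0.0262% and 0.0% of the 3824 peaks that the tool's filter on mean counts left), but only 6 of the 1363 passed that filter, so this count says little. At an unadjusted p under 0.05, 92 were higher and 100 lower in N+P C5 (9.74% and 7.71% of all peaks), or 94 and 67 with loess offsets, and edgeR called 0. With the replicate block there were 21 opening and 1 closing (0.303% of all peaks called), with no filter 11 opening (0.177%), and with Naive replicate 3 left out 38 and 17 (1.16%). N+P C5 against N+P C1, a comparison by PD1 and CD73 within N+P mice, had 0 and 0 of 1363 tested (0.0% and 0.0% of all peaks). At an unadjusted p under 0.05, 88 were higher and 1 lower in N+P C5 (2.04% and 0.237% of all peaks), or 31 and 9 with loess offsets, and edgeR called 0.

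**Figure D4:**
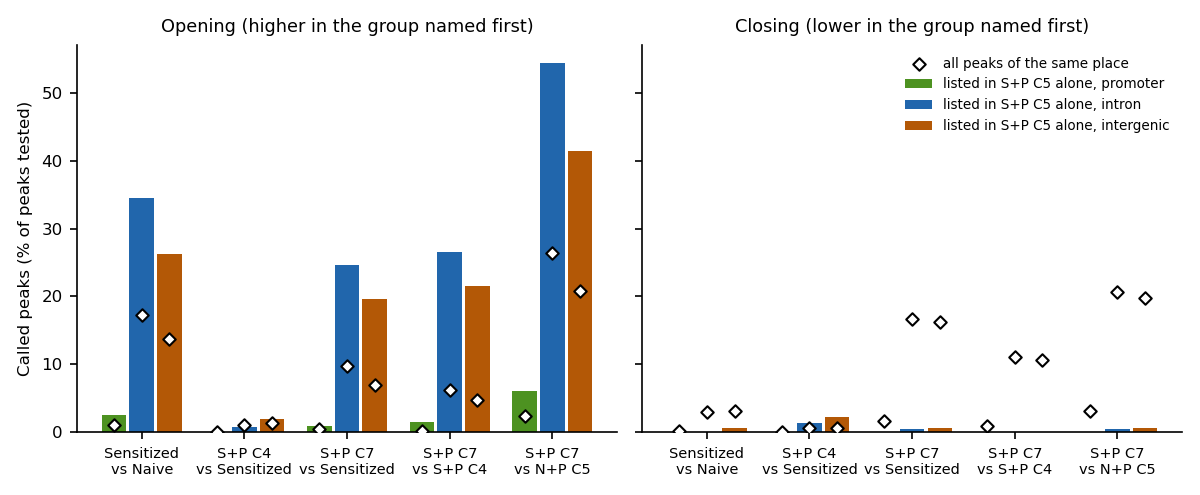
Percentage of promoter, intron and intergenic peaks called opening (left) and closing (right) in 5 comparisons, with bars for the peaks listed in S+P C5 alone and diamonds for all peaks of the same place. In S+P C7 against N+P C5, 54.4% of the intron and 6.12% of the promoter peaks opened, against 26.4% and 2.43% of all such peaks.

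In all, 407 of the 1363 (29.9%) opened in at least 1 of these 7 comparisons, against 12.2% of all peaks. The share was 29.8% without Sensitized replicates 1 and 2 (11.9% of all peaks) and 31.4% without replicates 3 and 4 (13.6%). It was not counted with loess offsets, under which opening counts fell in the single comparisons. They went from 383 to 105 in S+P C7 against N+P C5 and from 236 to 93 in Sensitized against Naive. In S+P C7 they went from 182 to 25 against S+P C4 and from 163 to 40 against Sensitized. The effect of the loess offsets was largest at the lowest counts. For S+P C7 against N+P C5 the median of the shifts they made was 0.28 log2 units over these peaks and 0.00355 over all peaks. At 10% of these peaks the shift was 2.36 or more. Peaks listed in S+P C5 alone made up 302 of the 676 peaks in the lowest 5% of mean log count, so they weigh in the curve that corrects them. At the Ptger2, Spaca6, Rps29 and Fam163a peaks, the fold changes of S+P C7 against N+P C5 were 1.31, 1.32, 1.91 and 1.43 with size factors and -1.71, -3.19, -4.26 and -1.85 with loess offsets. The direction at these 4 thus depends on the scaling, and their normalized counts above use the size factors.

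By function, the 11 gene lists held between 3 and 23 of the peaks each, counted by the nearest gene start. Their counts stand beside the shares that opened among all 1363 and among all peaks. These were 12% and 3.84% in S+P C7 against Sensitized, 13.4% and 2.48% in S+P C7 against S+P C4, 28.1% and 11.4% in S+P C7 against N+P C5, and 17.3% and 7.22% in Sensitized against Naive. With so few peaks per list, no list is set apart from the rest by its count. The transcription factors of exhausted and effector cells, which open or hold the chromatin of those states, had 23 of their 135 peaks here (17.0%, against 10.1% of the table), at 16 genes including Batf, Eomes, Maf, Prdm1, Tbx21, Tox and Tox2. Of the 23, 6 opened in S+P C7 against Sensitized, 5 against S+P C4 and 14 against N+P C5, and 9 in Sensitized against Naive, with 0 closing. Against Sensitized the 6 became 10 without its replicates 1 and 2 and 3 without replicates 3 and 4, and the 9 became 8 and 10. At a peak near Hif1a, the factor of low oxygen, S+P C5 held 440 to 591, compared with 345 to 436 in S+P C7, with no call. At the promoter of Nr4a2, a factor induced by the T cell receptor, S+P C5 held 424 to 510, compared with 441 to 635 in S+P C7, again with no call. Naive and stem-like regulators had 13 of 166 peaks (7.83%), and 0 of the 13 opened in S+P C7 against Sensitized or S+P C4, a count that in 13 peaks is near the shares over all peaks. Against Sensitized, 3 of the 13 opened without its replicates 1 and 2. Of the 13, an intergenic peak near Myb, which keeps T cells stem-like (chr10:21080268-21081237), held 373, 545, 449 and 334 in S+P C7 and 115, 89.1 and 102 in N+P C5, a rise of 2.06.

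Co-inhibitory receptors and ectoenzymes had 6 of 47 peaks (12.8%), at Btla, Cd101, Nt5e, Pdcd1 and Tigit. Of these 6, 2 opened in S+P C7 against Sensitized, the Pdcd1 and Tigit peaks above, 3 against S+P C4 and 3 against N+P C5. The first count was 3 without Sensitized replicates 1 and 2, and 2 without replicates 3 and 4. The Btla peak, in an exon of this receptor of T and B cells, held 475, 565, 368 and 335 in S+P C5, while S+P C7 held 323, 356, 189 and 113. No comparison without S+P C5 called it, and Sensitized replicates 1 and 2 (80.8 and 90.2) were again apart from replicates 3 and 4 (198 and 205).

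Cytotoxic effectors and cytokines had 8 of 56 peaks (14.3%), at Fasl, Il10, Tnfsf14 and Xcl1, of which 5 opened in S+P C7 against Sensitized (6 without Sensitized replicates 1 and 2, 4 without replicates 3 and 4) and 6 against N+P C5. Fasl, the death ligand by which T cells kill through Fas, had 5 peaks of this kind among its 16, all intergenic and spread over chr1:161502032-161578589. Their S+P C5 means were 323, 268, 466, 210 and 267, their S+P C7 means 204, 183, 336, 158 and 420, and their Naive means between 21.1 and 67.4. The peak with the highest S+P C5 mean (chr1:161520774-161521849) held 391, 683, 434 and 358 in S+P C5, while S+P C7 held 391, 489, 210 and 255, against 206, 152, 63.6 and 106 in Sensitized. It rose in S+P C7 against Sensitized by 1.35, and by 0.68 with loess offsets, which is no call. The rise was 1.99 without Sensitized replicates 1 and 2 and 0.91 without replicates 3 and 4. In 4 of the 5 peaks S+P C5 was the higher of the PD1+ subsets, and in the fifth, at the far end of the stretch, S+P C7 was.

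T cell receptor signaling and costimulation had 21 of 188 peaks (11.2%), with 6 opening in S+P C7 against Sensitized (7 without Sensitized replicates 1 and 2, 3 without replicates 3 and 4). At Ptpn11, which encodes the phosphatase SHP2 that acts below PD1, an intron peak (chr5:121317151-121318267) held 471, 585, 480 and 407 in S+P C5, then 440, 541, 343 and 287 in S+P C7 and 223, 140, 44.7 and 71.6 in Sensitized. S+P C7 was above Sensitized without overlap, by 1.75, and by 0.88 with loess offsets, which is no call. It was 2.79 above without Sensitized replicates 1 and 2 and 1.14 without replicates 3 and 4. An intron peak of Tnfrsf9, the costimulator 4-1BB, held 678 to 996 in S+P C5 and 475 to 609 in Sensitized, without a call in the other groups.

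Trafficking receptors, integrins and Cd44 had 11 of 75 peaks (14.7%). In S+P C7 against Sensitized 2 opened, or 7 without Sensitized replicates 1 and 2 and 1 without replicates 3 and 4. Of the 11, 7 opened in S+P C7 against N+P C5 and 7 in Sensitized against Naive (5 without Sensitized replicates 1 and 2, 7 without replicates 3 and 4). The Cxcr3 promoter, a chemokine receptor of effector and memory cells (chrX:100777311-100778060), held 418, 470, 213 and 202 in Sensitized against 85.4, 129 and 102 in Naive, a rise of 1.62 that loess offsets left at 1.55. It was 0.97 without Sensitized replicates 1 and 2, and 2.06 without replicates 3 and 4. An intron peak of Itga2, an integrin chain (chr13:115015212-115015895), held 336, 368, 89.4 and 123 in Sensitized and 8.27, 11.8 and 10.7 in Naive. It rose by 4.46, by 2.70 with loess offsets, by 3.35 without Sensitized replicates 1 and 2 and by 5.08 without replicates 3 and 4. At both, the S+P C5 libraries (277 to 362 and 207 to 442) overlapped those of S+P C7 and of Sensitized, though the peaks were listed in S+P C5 alone.

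Cytokine receptors with Jak, Stat and Socs genes had 11 of 128 peaks (8.59%). In S+P C7 against Sensitized 1 opened, or 5 without Sensitized replicates 1 and 2 and 1 without replicates 3 and 4. Of the 11, 5 opened in S+P C7 against N+P C5 and 5 in Sensitized against Naive (4 without Sensitized replicates 1 and 2, 6 without replicates 3 and 4). In an intron of Stat4, the transducer of IL-12 (chr1:52091577-52092602), S+P C7 held 196 to 471 and N+P C5 9.59 to 19.2, a rise of 4.44, and of 1.82 with loess offsets. The chromatin modifiers had 12 of their 41 peaks here (29.3%), at genes such as Arid1a, Ezh2, Kdm6b, Kmt2a and Tet2, of which 1 opened in S+P C7 against Sensitized (2 without Sensitized replicates 1 and 2, 1 without replicates 3 and 4) and 2 against N+P C5. The Ezh2 intron peak, at the gene of the H3K27 methyltransferase (chr6:47537788-47538762), held 407, 449, 361 and 301 in S+P C7 and 50.3, 69.9 and 46.9 in N+P C5. That rise of 2.77 was 1.67 with loess offsets. Killer-cell receptors had 3 of 16 peaks, survival genes 4 of 37 and markers of other cell types 3 of 11, at Cd4 and Klrb1c and none of them at a promoter. Of these, 3, 1 and 2 opened in S+P C7 against N+P C5, and 0, 0 and 0 in S+P C7 against Sensitized, or 2, 0 and 2 without Sensitized replicates 1 and 2. In the size-factor fit of all libraries, and except for the Il15ra peak in S+P C4 against Sensitized, no member of the 11 lists closed in a tested comparison. With loess offsets closing members of the lists were not counted. A Fasl peak (chr1:161514626-161515189) passed the closing call there in S+P C7 against N+P C5 (log2 fold change -1.29, DESeq2 Wald test, adjusted p = 0.0275).

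Sequence strings were compared outside promoters, in the central 300 bases of 726 of these peaks and of 5857 peaks of the table, as a description. The AP-1 string, bound by Fos, Jun and Batf dimers, stood in 22.7% of these peaks against 15.9%. The NFAT string stood in 31.8% against 25.5%, the IRF string in 41.2% against 34.7% and the T-box string in 12% against 7.70%. Lower shares were found for the ETS string (15.4% against 21.4%), the RUNX string (36.0% against 40.6%) and the E-box CAGCTG (16.5% against 18.9%). The rest differed by less than 1 percentage point: NR4A (2.34% against 1.59%), NF-kB GGAATTTCC (1.10% against 0.376%), STAT (11.0% against 10.2%), KLF GGGTGTGG (4.27% against 4.75%), TCF/LEF (25.1% against 25.5%) and CTCF AGGGGGC (5.37% against 5.09%). Median GC content outside promoters was 47.7% here and 48.7% over the table. Peaks shared by only the lists of the PD1+ subsets of S+P mice numbered 431 outside promoters. They had the AP-1 string in 24.8%, NFAT in 24.1%, IRF in 30.6%, T-box in 11.8%, ETS in 19.3% and RUNX in 45.9%. In 156 peaks listed in S+P C7 alone these shares were 19.9%, 21.2%, 36.5%, 14.1%, 21.2% and 45.5%. The T-box share was thus not particular to S+P C5. A string is not a bound site, and its absence from a window says nothing of the factor.

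**Figure D5:**
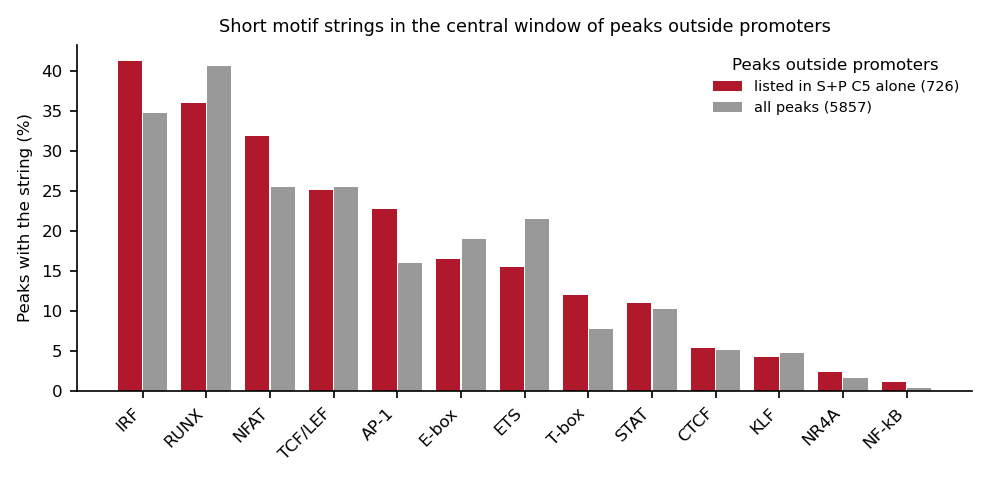
Percentage of peaks outside promoters whose central 300 bases hold each of 13 strings on either strand, for the peaks listed in S+P C5 alone (726) and all peaks (5857). AP-1 (22.7% against 15.9%), NFAT, IRF and T-box strings are more frequent in the first set, and ETS (15.4% against 21.4%) and RUNX strings less frequent.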

How the data were processed

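ATAC-seq was measured in 25 libraries of T_FGS in 7 groups, with the study's short names. Per the study's methods and the submitters' processing notes, the authors trimmed reads with cutadapt 3.4, aligned them to GRCm39 with Bowtie2 2.2.9, removed duplicates with Picard 2.21.8 and called cut-site peaks per library with Genrich 0.6.1. ChIP-R then kept peaks that recurred within a group, so each deposited list pools its libraries and has no replicate error. The deposited lists hold a ChIP-R score, a signal column that was not used here, and p-values and q-values per peak, of which only the q-values were used. The deposited table holds raw counts, not scaled, of 13527 merged peaks, and 0 of its columns were left out.

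Counts were fitted here with DESeq2 1.42.0 (R 4.3.3), Wald test, all 25 libraries, the group as the only term, Benjamini-Hochberg adjustment over all peaks and fold changes not shrunken. The tool and thresholds (adjusted p under 0.1, absolute log2 fold change over 0.9) follow the study. edgeR 4.0.16, limma 3.58.1 for loess offsets, other size factors, filters, thresholds, stricter membership and leaving out libraries were alternatives, and leaving out pairs of Sensitized libraries was added after seeing the data. The fit was tested on simulated data. Tables and figures used Python 3.11.15, pandas 2.3.3, numpy 2.4.6, scipy 1.17.1 and matplotlib 3.10.9. Genes and places come from GENCODE vM39, and sequences from GRCm39. Total counts per library, 2430890 to 25419715, limit peaks with few reads most. Duplicate removal aside, reads do not stand for independent molecules.

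The peaks, the gene lists and the strings were chosen with earlier results of these data known. Named were up to 4 peaks per gene list by S+P C5 mean, the 8 largest ratios of the S+P C5 mean to the highest other mean (S+P C5 mean of 30 or more), the 4 highest S+P C5 means, up to 3 opening and 3 closing peaks per tested comparison by adjusted p among those without overlap, and 4 at the edge of the rule. Not all of them are discussed, and 1 of them is not reported here. The study's methods describe cell suspensions of individual mice, but neither they nor the labels tie each library to a mouse, so p-values may measure technical spread in part. Same-numbered N+P C1 and N+P C5 libraries deviated from their group means together (r across peaks 0.400, 0.108 and 0.292), as did most same-numbered S+P libraries. Whether a number marks the same mice is not stated.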

Additional observations from a re-analysis of the deposited data

Results flagged for a closer look

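In groups of 4 libraries, the highest or lowest library was set against the others by Dixon's ratio (critical value 0.829). Of 316 groups checked at the named peaks, 18 held such a library, and chance gives about 1 in 20. S+P C5 replicate 2 stood above the rest of its group at Fas (280), Zfpm1 (1130), Cyrib (654) and Mbp (398), and S+P C5 replicate 3 below it at Fam163a (249). S+P C7 replicate 1 was high at Tigit (324) and low at Cd44 (214), and S+P C7 replicate 2 was high at Arid1a (827) and Zc3h12c (197). S+P C4 replicate 1, the library with the fewest counts, was high at Stk39 (170) and low at Klrb1c (221). S+P C4 replicate 2 was high at Hif1a (363) and Cd69 (836), and S+P C4 replicate 4 low at Il6st (95.1). Sensitized replicate 1 was high at Tnfrsf9 (609) and Tnfaip3 (237) and low at Spaca6 (21.9). Values are given for all of these but 1 library at 1 peak. They are normalized counts, and no cause was tested.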

How the results depend on the processing

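Depth, few libraries and the uneven Sensitized group limit these results, and the S+P C5 list chose the peaks. No cause was tested for the changes given here. A stricter membership by q under 0.05 left no peaks, so it gave no value. Counts of called peaks (opening and closing) moved by over 1.5 times in these cases. With loess offsets there were 76 in S+P C7 against Sensitized, 29 in S+P C7 against S+P C4, 214 in S+P C7 against N+P C5 and 145 in Sensitized against Naive. S+P C4 against Sensitized gave 15 at an adjusted p under 0.05, 11 with edgeR and 4 when fitted to both groups alone. N+P C5 against Naive gave 3 (0.142%) with total counts and 3 (0.151%) with size factors from peaks in all 7 lists. It gave 11 (0.177%) with no filter and 29 (0.481%) fitted to both groups alone, and N+P C5 against N+P C1 gave 2 (0.0665%) so fitted. Without Sensitized replicates 1 and 2 the counts were 306 (18.2%) in S+P C7 against Sensitized and 118 (4.74%) in S+P C4 against Sensitized. They were 141 (4.18%) in Sensitized against Naive, 45 (0.673%) in N+P C5 against Naive and 8 (0.177%) in N+P C5 against N+P C1. Without Sensitized replicates 3 and 4 they were 66 (2.31%) in S+P C4 against Sensitized, 34 (0.525%) in N+P C5 against Naive and 7 (0.163%) in N+P C5 against N+P C1.

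Leaving out 1 library at a time gave these ranges, with the range of the share of all peaks called in brackets. They were 149 to 214 (10.3% to 14.5%) in S+P C7 against Sensitized and 9 to 55 (0.488% to 1.94%) in S+P C4 against Sensitized. S+P C7 gave 140 to 200 (5.75% to 9.6%) against S+P C4 and 377 to 400 (21.4% to 23.2%) against N+P C5. Sensitized against Naive gave 204 to 264 (6.69% to 10.9%). N+P C5 against Naive gave 0 to 55 (0.0% to 1.16%), with 55 without Naive replicate 3 and 32 without Sensitized replicate 1. N+P C5 against N+P C1 gave 0 to 1 (0.0% to 0.00739%). S+P C4 against Sensitized had 52, 14 and 10 (1.73%, 0.599% and 0.488%) when replicate 1, 3 or 4 of S+P C4 was left out. It had 55 and 9 (1.94% and 0.591%) when replicate 1 or 2 of Sensitized was. The share of peaks highest in S+P C5 was 49.5% with total counts, 54.7% with size factors from peaks in all 7 lists, and 41.1% to 50% with an S+P C5 library left out. The median log2 ratio to the highest other group then ran from -0.0436 to 0.00018, and was 0.0184 with size factors from peaks in all 7 lists.

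With the replicate block, N+P C5 against Naive gave 22 calls (0.303% of all peaks). S+P C4 against Sensitized gave 34 (0.954%), or 24 (0.858%) without the block. The other counts stayed within 1.5 times, at 167 (12.1%) in S+P C7 against Sensitized. Same-numbered S+P C4 and S+P C7 libraries correlated at 0.612, 0.0639, 0.385 and 0.666, and 6 of 8 correlated best with their own number. Same-numbered libraries correlated at 0.572, 0.103, 0.313 and 0.510 between S+P C4 and S+P C5. Between S+P C5 and S+P C7 they correlated at 0.771, 0.575, 0.522 and 0.630. Same-numbered S+P libraries thus varied together, though weakly at replicate 2 of S+P C4. The labels do not say that a number marks the same mice, so the block is an alternative and not a known pairing. S+P C7 against S+P C4 had 182 calls with the block (7.9% of all peaks) and 182 without (7.73%). There the block took Fasl (0.86), Ptger2 (0.87) and Ndufaf6 (0.90) under the fold threshold. With the block, opening counts were 274 in S+P C5 against S+P C4 (270 without, where 3.12% of all peaks opened). In S+P C5 against S+P C7 they were 72 (55 without, where 2.11% of all peaks opened).

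Of 139 calls at 50 named peaks, 59 held under every alternative and 73 under loess offsets. Signs turned with loess offsets at 23 of them. In S+P C7 against N+P C5 these were Klrk1 (-0.288), Ptger2 (-1.71), Spaca6 (-3.19), Rps29 (-4.26), Fam163a (-1.85), Zc3h12c (-2.75), Cox7c (-2.33), Ppp2r5c (-1.63), Fasl (-1.29), Trib1 (-0.813) and Dgkh (-0.499). In S+P C7 against Sensitized they were Ptger2 (-0.381), Spaca6 (-1.31), Rps29 (-1.15), Fam163a (-0.537) and Zc3h12c (-0.764), in S+P C7 against S+P C4 Ptger2 (-0.225), Spaca6 (-0.338), Zc3h12c (-0.536) and Trib1 (-0.0377), and in Sensitized against Naive Spaca6 (-1.02), Mbp (-0.39) and Trib1 (-1.05). Without Sensitized replicates 1 and 2, Myb turned in Sensitized against Naive (-0.0254).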

Other observations

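The 1363 peaks lay nearest to 1209 genes, of which 1088 had 1, 96 had 2 and 25 had 3 or more. The genes named here were chosen after their values were seen. Ppp2r5c had 4 such peaks within chr12:110341604-110356663, all intergenic, with S+P C5 means of 239, 622, 256 and 459 and S+P C7 means of 155, 472, 235 and 361. Their Naive means were 11.9, 24.1, 4.41 and 9.16 and their Sensitized means 31.7, 39.9, 7.52 and 18.2, and the means of N+P C1, N+P C5 and S+P C4 ran from 7.71 to 79.5. All 4 opened in S+P C7 against Sensitized and against N+P C5, and 1 opened in Sensitized against Naive (0 without Sensitized replicates 1 and 2). With loess offsets 3 opened against Sensitized and 0 against N+P C5, where the fold changes of 1.95, 2.89, 3.84 and 3.32 became -2.45, 0.44, -1.63 and -0.58.

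Atxn1, which encodes a chromatin-binding repressor, had 4 peaks in its introns (chr13:46005793-46072819), with S+P C5 means of 241, 261, 246 and 259 against S+P C7 means of 239, 261, 199 and 227. A pair of them was nearly closed in Naive (9.65 and 7.74) and open in Sensitized (105 and 78.3), while the other two had Naive means of 135 and 134. At Cd44, the adhesion receptor that marks antigen-experienced T cells, 4 peaks of 8 were of this kind. The intron peaks had means of 129 in S+P C4 to 216 in S+P C5 and of 167 in S+P C4 to 278 in S+P C5, with 207 and 200 in Naive. The intergenic ones went from 107 and 53.3 in Naive to 392 and 138 in Sensitized and 401 and 312 in S+P C5. At the first of them the rise in Sensitized against Naive was 1.86, or 0.97 without Sensitized replicates 1 and 2 and 2.41 without replicates 3 and 4, and without replicates 1 and 2 the peaks at Cd44 opening there went from 2 to 1.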
